A study of Danio rerio with 2 samples.

Results

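Transcripts of 9 genes that mark astroglia or are used to describe them were followed through single cells of the male zebrafish hypothalamus: hopx (ENSDARG00000089368), gfap (ENSDARG00000025301), glula (ENSDARG00000099776), slc1a2b (ENSDARG00000102453), slc1a3b (ENSDARG00000043148), s100b (ENSDARG00000057598), fabp7a (ENSDARG00000007697), gja1b (ENSDARG00000041799) and ptn (ENSDARG00000102340). They are 9 of the 32057 listed genes and were chosen by name, with values of these data already in view. For hopx the ratio between genotypes was part of that choice, so its ratio is given here as a description. All 9 passed the minimum of 100 UMIs over both libraries in each set of glial cells examined.

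The fish were 6-month-old males, either CCK1/2-KO, in which CRISPR/Cas9 deletions had been made in the cholecystokinin genes cck1 and cck2, or wild type (WT). Hypothalami of 30 fish were collected per group, dissociated with trypsin, EDTA and DNase II and pooled into 1 droplet library per genotype, in which each transcript molecule is counted once through its unique molecular identifier (UMI). With 1 library per genotype there is no replicate and no test, and the genotype, the pool of fish, the dissociation and the library cannot be told apart. The intervals below are exact 95% intervals and cover counting error only, not the spread between fish.

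Astroglia of the adult fish brain are mostly radial glia, cells with a body at the ventricle and a long process towards the brain surface. They take up glutamate, couple to one another through gap junctions, contact vessels and can act as neural stem cells. gfap encodes the glial intermediate filament, s100b a calcium-binding protein and fabp7a a fatty acid carrier of radial glia. slc1a2b and slc1a3b encode glutamate transporters, and glula encodes glutamine synthetase, which turns the glutamate taken up into glutamine. gja1b encodes connexin 43, the main gap junction protein of astroglia, and ptn encodes pleiotrophin, a secreted growth factor. hopx encodes a small homeodomain protein that does not bind DNA itself and acts through partner proteins. In mammals it marks quiescent stem cells and outer radial glia.

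The CCK1/2-KO library kept 10393 cells with a median of 2878 UMIs, and the WT library kept 8543 cells with a median of 3047 UMIs. Cells were clustered without the 9 genes and without the genes that set the glial states. Glia were taken as 6 of the 40 clusters, those with at least 4 markers of a separate glial list, and held 1376 CCK1/2-KO cells (median 4294 UMIs) and 1046 WT cells (median 4886.5 UMIs). her4.1, a Notch target of radial glia, stood at 5484 and 6063 UMIs per 1000000 UMIs of the same cells (CPM) in CCK1/2-KO and WT glia, against 139 and 124 CPM in all other cells. It belongs to the glial list that named these clusters, so its difference is partly set by that choice and is only a description. The glial markers sox2 and fabp7b had no UMI in any glial cell, and sox2 had none in any cell of either library. Glial cluster 37 held 36 CCK1/2-KO cells and 2 WT cells, and glial cluster 10 carried only 4 glial markers, with krt4 and rx3 among its leading genes. The clusters with 3 glial markers, which were left out, held 51 CCK1/2-KO and 41 WT cells (cluster 31) and 3 CCK1/2-KO and 73 WT cells (cluster 33). ccka, a cholecystokinin gene, had 163 CPM in all CCK1/2-KO cells and 376 CPM in all WT cells. The labels do not say whether it is cck1 or cck2, and no other cholecystokinin gene is analysed here.

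Glial states were set by counts in single cells. A glial cell with at least 2 UMIs of exactly one of wnt8b, rx3 and foxj1a was given that state. wnt8b encodes a Wnt ligand, rx3 a homeodomain factor of the developing eye and hypothalamus, and foxj1a the regulator of motile cilia. A cell with none of these and at least 10 slc1a2b UMIs was given the slc1a2b state. The slc1a2b state held 463 CCK1/2-KO and 434 WT cells, the wnt8b state 75 and 81, the rx3 state 188 and 139, and the foxj1a state 161 and 95. The remaining cells were 445 CCK1/2-KO and 263 WT glia with no state, and 44 and 34 cells with more than 1 of the 3 state genes. These states are ranges of a count and not separate types. For rx3, 93 CCK1/2-KO and 76 WT glial cells lay just outside the limit with 1 UMI, and 46 and 31 lay just inside it with 2 UMIs.

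The first question was how far each gene was restricted to glia. Only classes with a name were compared. Cells of unnamed clusters and of clusters 31 and 33, 27.9% of CCK1/2-KO and 30.9% of WT cells, were left out of this order. Among the named classes, every member apart from hopx had its highest level in glia in both libraries. slc1a3b stood furthest above the next named class. It stood at 421 CPM in CCK1/2-KO glia and 585 CPM in WT glia, which was 34.2-fold and 39.9-fold the level of the next named class. All cells outside glia together had 14.1 and 16.8 CPM, above the 12.3 and 14.7 CPM of that class. The cells without a class name thus held more slc1a3b than any named class outside glia. Of the slc1a3b UMIs, 87.3% in CCK1/2-KO and 87.4% in WT came from glial cells. By that share slc1a2b was more restricted, with 90.6% in CCK1/2-KO and 89.9% in WT. gfap stood at 135 CPM in CCK1/2-KO glia and 163 CPM in WT glia, 6.56-fold and 7.98-fold the next class. In oligodendrocyte-like cells gfap was at 2.4 and 2.3 CPM.

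The remaining 6 members are given beside the class that came next to glia. Oligodendrocyte precursor-like (OPC-like) cells came next for slc1a2b, s100b and fabp7a. slc1a2b had 10480 CPM in CCK1/2-KO glia and 11695 CPM in WT glia, against 1668 and 1685 CPM in OPC-like cells. fabp7a had 6385 and 7515 CPM in glia of the 2 libraries, and 1868 and 1979 CPM in OPC-like cells. glula was the least restricted, since oligodendrocyte-like cells, which also make glutamine synthetase, held 1852 CPM in CCK1/2-KO and 2238 CPM in WT. That left glia only 2.03-fold higher in CCK1/2-KO and 1.59-fold higher in WT. For gja1b and ptn the next class was vascular endothelium-like cells, with 1405 and 929 CPM of gja1b and 173 and 155 CPM of ptn.

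hopx did not follow this pattern and its highest level was not in glia. In vascular endothelium-like cells it stood at 4624 CPM in CCK1/2-KO and 4063 CPM in WT. These cells held 50.4% of the hopx UMIs of the CCK1/2-KO library and 66.7% of those of the WT library, with 5.26% and 5.55% of all UMIs. Mural-like cells, which wrap vessels, came next with 1164 CPM in CCK1/2-KO and 628 CPM in WT. Glia had 849 CPM (831 to 868) in CCK1/2-KO and 303 CPM (291 to 315) in WT. Of the glial hopx UMIs, 3948 of 8295 in CCK1/2-KO and 1018 of 2396 in WT lay in glial cluster 10. That cluster had only the minimum of 4 glial markers, and slc1a2b stood at 1123 and 1680 CPM there. The other glial clusters with enough WT cells had 347 to 816 CPM of hopx in CCK1/2-KO and 186 to 262 CPM in WT. Oligodendrocyte-like cells had 168 CPM in CCK1/2-KO and 287 CPM in WT, so that in WT they were close to glia. Neuron-like cells were lowest at 45.7 and 29.1 CPM. Erythrocyte-like cells, taken here as a guide to the level of free hopx RNA, had 90.3 and 51.4 CPM. Glia stood 9.40-fold above them in CCK1/2-KO and 5.90-fold in WT.

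**Figure D1:**
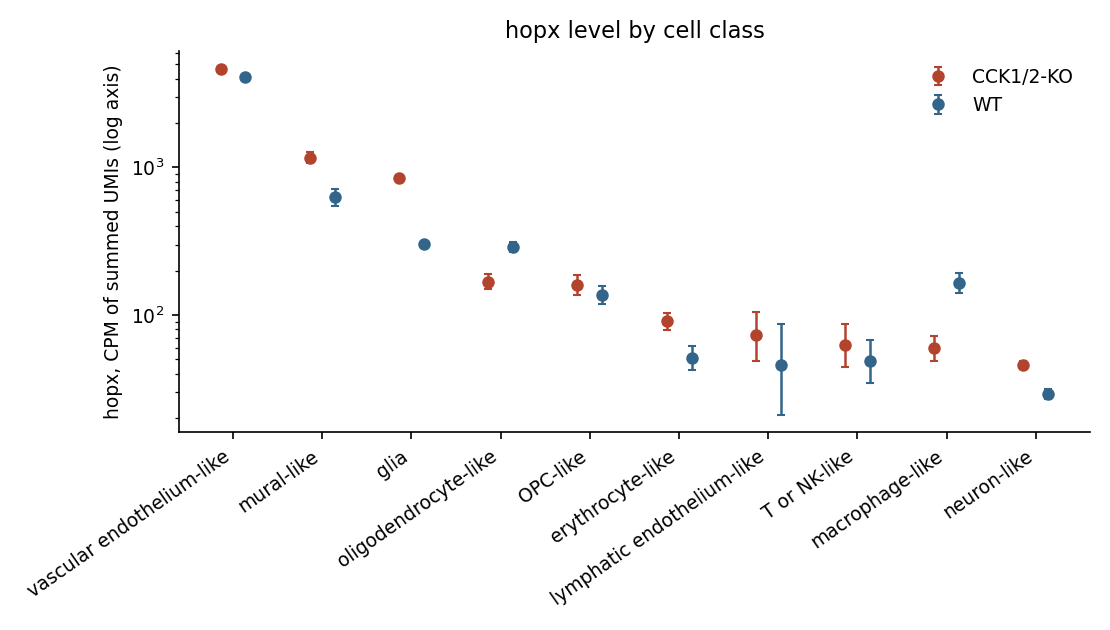
hopx level in each cell class (CPM of summed UMIs, log axis), CCK1/2-KO left of WT, 1 library each; bars are exact 95% Poisson intervals and are hidden where smaller than the point. Vascular endothelium-like cells lie highest in both libraries (4624 and 4063 CPM), and the libraries lie further apart in glia (849 and 303 CPM).

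Shares of cells with a UMI were compared at equal depth. After each cell was thinned to 1000 UMIs, 36.8% (34.1 to 39.6) of 1193 CCK1/2-KO glia and 19.7% (17.2 to 22.4) of 937 WT glia had a hopx UMI. Without thinning the shares were 62.7% and 46.8%. Thinned erythrocyte-like cells gave 8.99% and 3.85%. Of these shallow cells (medians of 938 and 981 UMIs) 995 of 1751 in CCK1/2-KO and 630 of 1227 in WT were under 1000 UMIs and left out. Thinned neuron-like cells gave 3.69% and 2.12%. The glial shares thus lay above the level in cells that should lack the gene in both libraries. Among the others, fabp7a was found in 90.2% and 90.3% of thinned glia, slc1a2b in 81.6% and 84.4%, glula in 76.6% and 66.7%, and gfap in only 9.81% and 12.9%. gfap, the classical marker, was thus counted in few cells at this depth.

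Next, the levels of each gene were compared across the glial states. slc1a2b itself was higher in the slc1a2b state because the state was set by it. glula, gja1b and ptn were also highest there in both libraries. These 3 genes varied with slc1a2b over glial cells, so their order is not independent of the state rule and is a description. glula had 5865 CPM in CCK1/2-KO and 5123 CPM in WT cells of the slc1a2b state, and 2641 and 2413 CPM in the foxj1a state. ptn varied most: it had 1360 CPM in CCK1/2-KO and 1194 CPM in WT in the slc1a2b state, and 303 and 221 CPM in the wnt8b state. In WT, 87.7% of the ptn UMIs of the wnt8b state came from 3 cells, so most cells of that state held little or none.

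slc1a3b followed another order than slc1a2b, although both encode glutamate transporters. Its level was 527 CPM in CCK1/2-KO and 728 CPM in WT in the rx3 state, 382 and 844 CPM in the wnt8b state, 325 and 497 CPM in the slc1a2b state, and 298 and 289 CPM in the foxj1a state. In CCK1/2-KO the slc1a2b state was not separated by counting error from the wnt8b or the foxj1a state for this gene. s100b was lowest in the foxj1a state of CCK1/2-KO (1087 CPM) and in the rx3 state of WT (1523 CPM). Its slc1a2b and wnt8b states were not separated in either library, with 1858 and 1736 CPM in CCK1/2-KO and 2402 and 2508 CPM in WT. fabp7a was highest in the slc1a2b state of CCK1/2-KO (7884 CPM) and in the foxj1a state of WT (9350 CPM). For gfap in WT, the slc1a2b, rx3 and foxj1a states were not separated (183, 170 and 164 CPM), and the wnt8b state was lower at 109 CPM.

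hopx was highest in the rx3 state in both libraries, with 1295 CPM in CCK1/2-KO and 466 CPM in WT. The slc1a2b state had 723 and 262 CPM, the wnt8b state 606 and 297 CPM, and the foxj1a state, lowest in both, 470 and 187 CPM. In WT the slc1a2b and wnt8b states were not separated for hopx. The rx3 state was also first by cell. Of the rx3 cells, 49.5% in CCK1/2-KO and 23.0% in WT held at least 10 hopx UMIs, against 17.1% and 6.69% of all glia. Below it the order by cell differed, with 17.9% and 5.76% in the slc1a2b state, 10.6% and 6.32% in the foxj1a state and 9.33% and 3.70% in the wnt8b state. Cells of the rx3 state were also deeper, with medians of 10698.5 and 10627 UMIs, but on cells thinned to 1000 UMIs their hopx share was still the highest of the 4 states (48.7% in CCK1/2-KO and 33.6% in WT). Glial cluster 10 held 59.0% of the rx3 cells in CCK1/2-KO and 52.5% in WT. Within it the slc1a2b state had more hopx (2616 and 853 CPM, from 19 and 36 cells) than the rx3 state (1731 and 643 CPM). In cluster 9 the rx3 state had 870 and 251 CPM and the slc1a2b state 719 and 200 CPM. The first place of the rx3 state thus did not hold within every cluster.

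**Figure D2:**
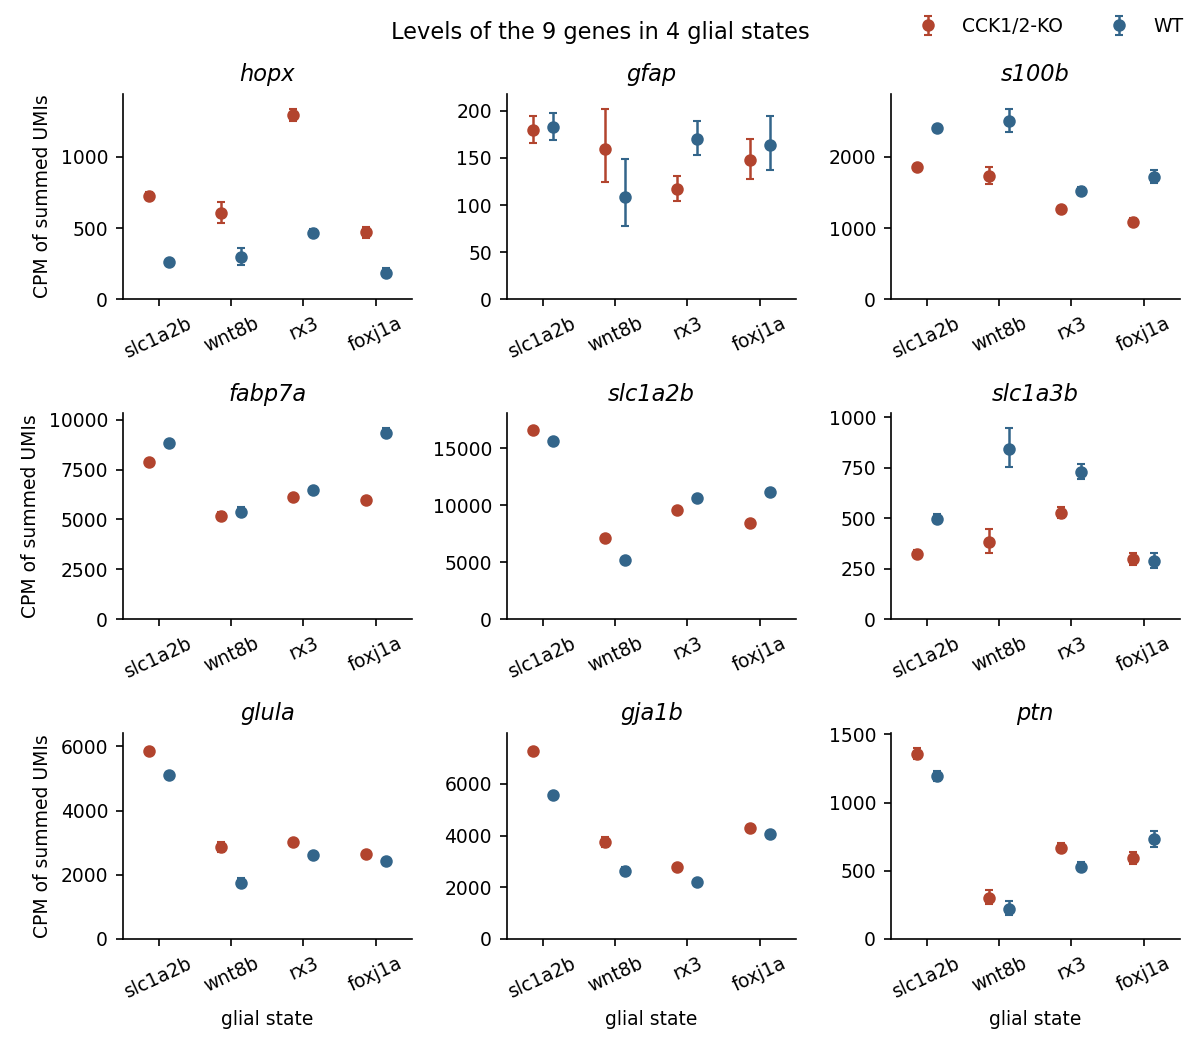
Level of each of the 9 genes in the 4 glial states (CPM of summed UMIs, linear axes from 0), CCK1/2-KO left of WT, 1 library each; bars are exact 95% Poisson intervals. hopx is highest in the rx3 state of both libraries (1295 and 466 CPM), and slc1a2b in the slc1a2b state is set by the state rule.

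Co-expression was examined over single glial cells of at least 1000 UMIs, 1193 in CCK1/2-KO and 937 in WT. The correlations use each cell's level per 10000 UMIs and are descriptions, since cells of 1 library share it and their depths differ. The closest pair in both libraries was slc1a2b with gja1b, with a Pearson r of 0.77 in CCK1/2-KO and 0.71 in WT. slc1a2b with glula gave 0.65 and 0.67, glula with fabp7a 0.57 and 0.67, and slc1a2b with fabp7a 0.60 and 0.62. The glutamate transporter, glutamine synthetase, connexin 43 and the fatty acid carrier therefore varied together over cells. ptn reached 0.58 with slc1a2b in CCK1/2-KO and 0.61 with glula in WT, its highest partners. On counts thinned to 1000 UMIs, the rank correlation of slc1a2b with gja1b was 0.76 in CCK1/2-KO and 0.69 in WT.

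Outside this core lay slc1a3b and hopx. The median r of slc1a3b with the other members was −0.06 in CCK1/2-KO and −0.14 in WT, and with slc1a2b it was −0.09 and −0.19. hopx had a median r of 0.08 in CCK1/2-KO and −0.01 in WT. Its highest partner was ptn in CCK1/2-KO (0.13) and slc1a3b in WT (0.08), and its lowest was gja1b in both (−0.06 and −0.13). Such weak values in sparse counts are no finding. Within the rx3 state alone, slc1a2b and gja1b gave 0.85 in CCK1/2-KO and 0.83 in WT, and hopx again had a median near 0, at 0.06 and −0.09. That state lay mostly in glial clusters 9 and 10, with 35.6% and 59.0% of its CCK1/2-KO cells. Whole cluster 9 had 20005 CPM of slc1a2b and 8146 CPM of gja1b in CCK1/2-KO, and whole cluster 10 had 1123 and 128 CPM. The high r thus spans clusters with very different levels of both genes.

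**Figure D3:**
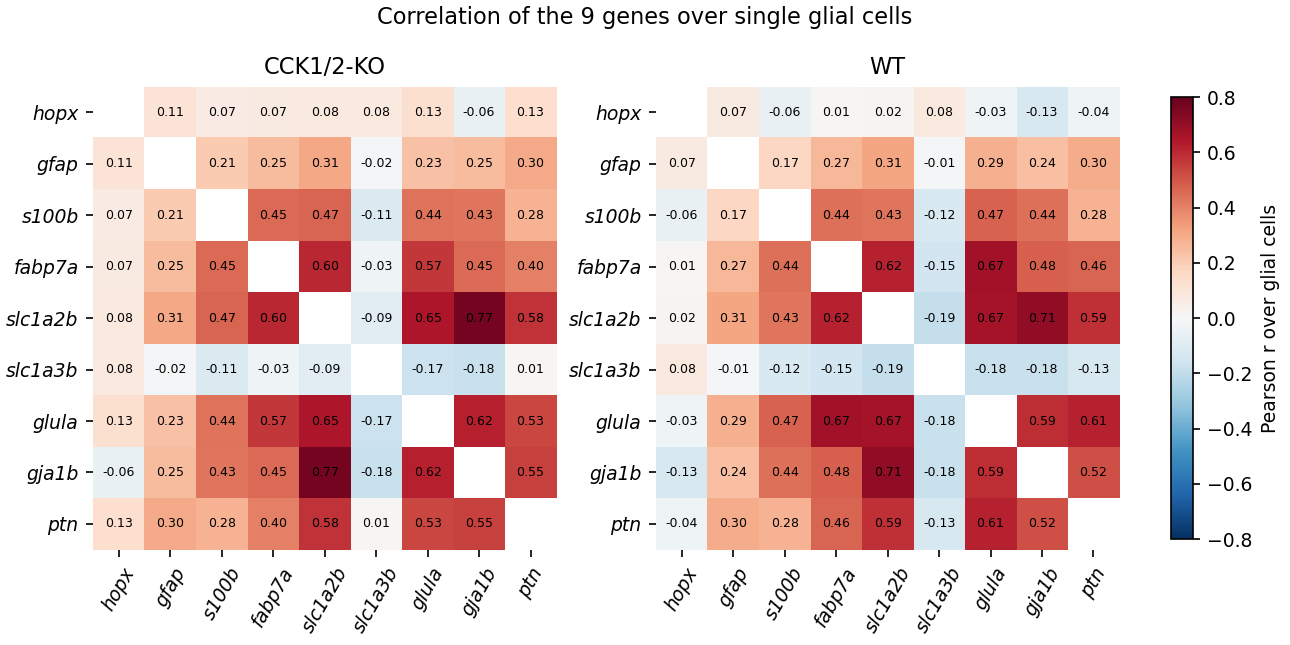
Pearson r between the 9 genes over single glial cells of at least 1000 UMIs, CCK1/2-KO on the left (1193 cells) and WT on the right (937 cells); colour runs from −0.8 to 0.8. slc1a2b, gja1b, glula and fabp7a form the block of high values, and the rows of hopx and slc1a3b stay near or below 0. ptn reaches 0.58 with slc1a2b in CCK1/2-KO and 0.61 with glula in WT.

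Cells with and without a thinned hopx UMI were then set side by side. In CCK1/2-KO glia, glula averaged 4.25 thinned UMIs in the 439 cells with hopx and 3.50 in the 754 without, a log2 ratio of 0.28 (0.20 to 0.37). In WT glia the 185 cells with hopx had fewer glula UMIs than the 752 without (2.82 against 3.72, log2 ratio −0.40, −0.54 to −0.26). For fabp7a the ratio was 0.17 in CCK1/2-KO and −0.19 in WT. s100b gave 0.02 in CCK1/2-KO, with an interval across 0 (−0.12 to 0.16), and −0.31 in WT. Over all glia the relation of hopx to glula and fabp7a thus had no shared direction in the libraries. For glula the slc1a2b state also gave opposite signs (0.15 in CCK1/2-KO and −0.45 in WT). In the rx3 state glula was lower in cells with hopx in both libraries. The ratio there was −0.28 (−0.55 to −0.018) in CCK1/2-KO and −0.41 (−0.80 to −0.037) in WT. The rx3 state lay mostly in glial clusters 9 and 10, which differ in both genes. Whole cluster 9 had 6452 and 5927 CPM of glula and 774 and 215 CPM of hopx. Whole cluster 10 had 897 and 555 CPM of glula and 1384 and 571 CPM of hopx. Whether the relation holds within a cluster was not tested.

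Over whole clusters the picture was different, because clusters also separate glia from other classes. Across 58 profiles, the 29 clusters with at least 50 cells in each library taken once per library, slc1a2b with fabp7a gave r = 0.97 and s100b with fabp7a 0.96. The lowest value among the 8 members other than hopx was 0.67, for slc1a3b with glula and with ptn. hopx reached 0.48 with glula and 0.66 with gja1b, its lowest and highest partners.

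Levels were next compared between genotypes. In all glia, hopx was the only one of the 9 at least 2-fold higher in CCK1/2-KO, and none was at least 2-fold lower. Of the 11085 genes tested in the same cells, 1.64% were at least 2-fold higher and 1.54% at least 2-fold lower. Since hopx was chosen with its ratio known, nothing is read from its place beside that share. The other 8 members lay between −0.47 and 0.18 on the log2 scale, with a median of −0.20, beside −0.015 for all genes tested.

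The structural and carrier genes were lower in all glia. s100b had 1427 CPM in CCK1/2-KO glia and 1940 CPM in WT glia, a log2 ratio of −0.44 (−0.48 to −0.41). It was lower beyond counting error in all 4 states, from −0.66 in the foxj1a state to −0.26 in the rx3 state, and below 0 in each of the 5 glial clusters with enough WT cells (−0.40 to −0.22). fabp7a was lower by less in all glia (log2 ratio −0.24, −0.25 to −0.22), but not in every cluster. It was −0.28 in cluster 9, −0.028, −0.074 and −0.044 in clusters 4, 16 and 19, and 0.18 (0.13 to 0.23) in cluster 10. The size depended on the state, with 5970 CPM in CCK1/2-KO and 9350 CPM in WT in the foxj1a state (−0.65) and 5174 and 5384 CPM in the wnt8b state (−0.057, −0.15 to 0.031). The foxj1a cells were spread differently over clusters, with 49.1% in CCK1/2-KO and 66.3% in WT in cluster 19, and 17.4% and 8.42% in cluster 10. gfap had 135 and 163 CPM in all glia (−0.27, −0.38 to −0.15). In the slc1a2b state its levels were 180 CPM in CCK1/2-KO and 183 CPM in WT (−0.024, −0.18 to 0.14). In glial cluster 9, where slc1a2b was highest, gfap was lower, with 197 CPM in CCK1/2-KO and 247 CPM in WT (−0.32, −0.46 to −0.18). Its intervals crossed 0 in clusters 4 and 19 (0.25 and 0.19) and in clusters 10 and 16 (−0.16 and −0.34). In the wnt8b state gfap leaned the other way without being separated, with 160 CPM in CCK1/2-KO and 109 CPM in WT (0.55, −0.031 to 1.15). In the rx3 state gfap had 117 CPM in CCK1/2-KO and 170 CPM in WT (−0.54, −0.76 to −0.32). That value was −1.83 among cells of 2000 to 8000 UMIs and −1.14 without cells holding a UMI of a vascular endothelium marker. The marker step left out 53.7% of the CCK1/2-KO and 59.7% of the WT cells of the rx3 state.

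The glutamate transporters differed from each other. slc1a3b had 421 CPM in CCK1/2-KO glia and 585 CPM in WT glia (−0.47, −0.53 to −0.41). In the wnt8b state it was the only one of the 9 at least 2-fold lower, with 382 CPM in CCK1/2-KO and 844 CPM in WT (−1.14, −1.43 to −0.87), where 4.01% of the 1198 genes tested were that much lower. In the foxj1a state the levels were 298 and 289 CPM (0.042, −0.20 to 0.28). Within each of the 5 glial clusters slc1a3b was below 0, from −0.92 to −0.37. slc1a2b had 10480 CPM in CCK1/2-KO and 11695 CPM in WT (−0.16, −0.17 to −0.15), but without cells holding a UMI of a vascular endothelium marker the ratio was 0.0071. Within clusters slc1a2b was −0.023 (−0.073 to 0.027) in cluster 4, −0.040 in cluster 9, and −0.13 and −0.11 in clusters 16 and 19. It was −0.58 in cluster 10, where the level was 1123 and 1680 CPM, against 20005 and 20572 CPM in cluster 9. By state it ranged from 0.47 in the wnt8b state to −0.40 in the foxj1a state, and both directions turned among cells of 2000 to 8000 UMIs, at −0.047 and 0.22. The foxj1a value also turned, to 0.051, without the cells holding a vascular endothelium marker.

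Glutamine synthetase and connexin 43 were higher in CCK1/2-KO glia, by less than 2-fold. glula had 3767 CPM in CCK1/2-KO glia and 3558 CPM in WT glia, a log2 ratio of 0.082 (0.060 to 0.10). It was higher beyond counting error in all 4 states, most in the wnt8b state with 2856 and 1743 CPM (0.71, 0.57 to 0.85), and above 0 in all 5 clusters (0.12 to 0.69). In the wnt8b state 37.8% of the glula UMIs in CCK1/2-KO and 39.2% in WT lay in 3 cells. Without cells holding a vascular endothelium marker the wnt8b value was 1.36, over 2-fold, from 53 CCK1/2-KO and 53 WT cells. gja1b had 4317 CPM in CCK1/2-KO and 3811 CPM in WT (0.18, 0.16 to 0.20). Its ratio was 0.39 in the slc1a2b state, 0.52 in the wnt8b state, 0.33 in the rx3 state and 0.083 in the foxj1a state. It was −0.46 in glial cluster 10, where the level was 128 and 176 CPM, and above 0 in the other 4 clusters. In vascular endothelium-like cells gja1b was also higher in CCK1/2-KO (0.60).

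ptn stood at 792 CPM in both libraries over all glia, with a log2 ratio of 0.00048 (−0.048 to 0.049). By state it was 0.19 in the slc1a2b state, 0.46 in the wnt8b state, 0.33 in the rx3 state and −0.30 in the foxj1a state. The slc1a2b value turned to −0.29 and the foxj1a value to 0.53 among cells of 2000 to 8000 UMIs, and the foxj1a value was 0.0030 with doublets kept. In the wnt8b state, leaving out the 3 cells with the most ptn in each library gave 2.57, and cells of 2000 to 8000 UMIs gave 1.15. The ptn ratio of a single state thus changed with the cells taken.

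**Figure D4:**
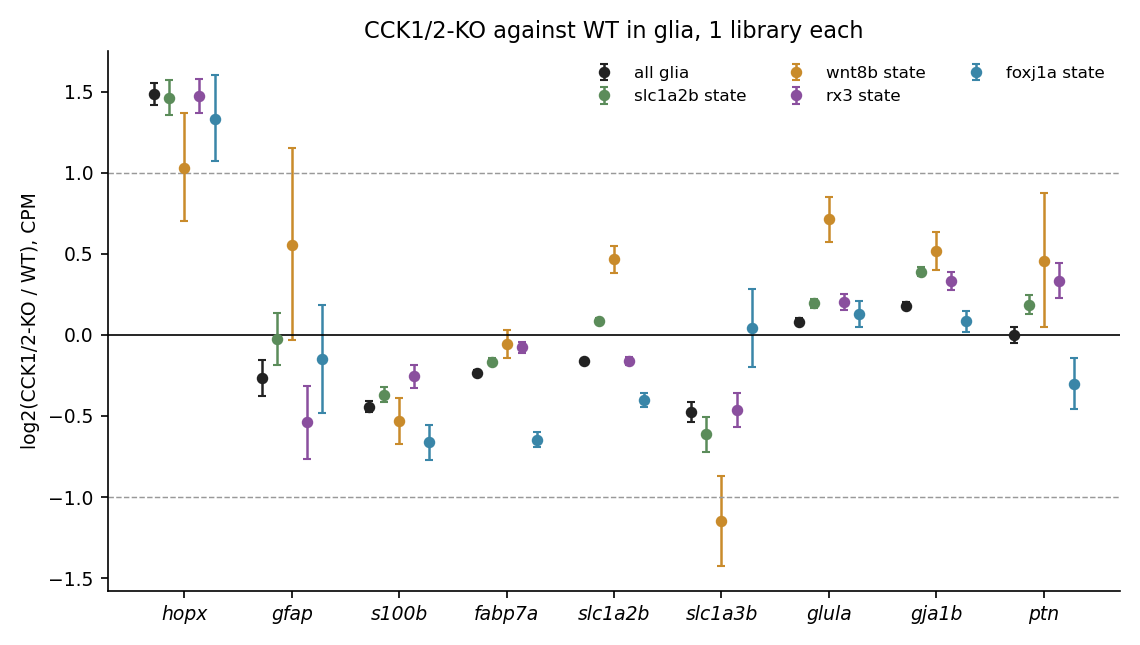
Log2 ratio of CCK1/2-KO over WT for the 9 genes in all glia and in each state, with exact 95% counting intervals; dashed lines mark 2-fold and the line at 0 no difference. hopx lies above 1 in every set (1.03 to 1.49), s100b below 0 and glula above 0 in every set, and only slc1a3b in the wnt8b state lies below −1 (−1.14).

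For hopx itself, 8295 UMIs were counted in CCK1/2-KO glia and 2396 in WT glia. The log2 ratio of the levels was 1.49 (1.42 to 1.55), which ranked 43 from the top among the 11085 genes tested. A hopx UMI was found in 863 of 1376 CCK1/2-KO glia and in 490 of 1046 WT glia. The median glial cell had 3.47 hopx UMIs per 10000 in CCK1/2-KO and 0.43 in WT, and the highest cell held 112 and 61 hopx UMIs. At least 10 UMIs were held by 235 CCK1/2-KO cells and 70 WT cells. The hopx UMIs thus did not rest on a few cells, since the 3 highest held only 3.92% and 7.05% of them. They were still uneven, as the 10% of cells with the most held 62.4% in CCK1/2-KO and 64.1% in WT.

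Pooled over clusters, all 4 states gave a hopx ratio of at least 2-fold. The slc1a2b state had 2526 UMIs in CCK1/2-KO and 952 in WT (log2 ratio 1.46, 1.36 to 1.57), where 1.21% of 7357 genes tested were at least 2-fold higher and 1.70% at least 2-fold lower. The rx3 state had 3598 and 932 UMIs (1.47, 1.37 to 1.58), beside 1.57% of 5852 genes higher and 1.74% lower. The foxj1a state had 595 and 149 UMIs (1.33, 1.07 to 1.60), beside 4.28% of 3180 genes higher and 2.80% lower. The wnt8b state had 262 and 109 UMIs (1.03, 0.70 to 1.37), beside 3.51% of 1198 genes higher. In that state 38.5% and 46.8% of the hopx UMIs lay in 3 cells, and the ratio was under 2-fold, at 0.79, with a state minimum of 3 UMIs. Glia with no state gave 1.83, from 1013 and 171 UMIs.

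The ratio was not even over clusters. It was 1.85 in glial cluster 9, where hopx had 774 CPM in CCK1/2-KO and 215 CPM in WT. Cluster 16 gave 1.71, cluster 10 gave 1.28 (1384 and 571 CPM), cluster 19 gave 0.90 (347 and 186 CPM) and cluster 4 gave 0.62 (402 and 262 CPM). Cluster 9 is the deep cluster led by ptn and slc1a2b among its genes, and cluster 4 is led by wnt8b and emx2. Of the cells of the foxj1a state, those in cluster 19 had 266 CPM in CCK1/2-KO and 201 CPM in WT (0.41, 0.02 to 0.80). Those in cluster 4 went the other way, with 171 and 296 CPM from 34 and 30 UMIs (−0.79, −1.54 to −0.03). Clusters 4 and 19 held most of the foxj1a cells in both libraries. With 129 and 103 UMIs in cluster 19, they held most of the 149 WT hopx UMIs but a minority of the 595 in CCK1/2-KO. The pooled foxj1a ratio of 1.33 thus came mainly from the other cells, chiefly in cluster 9 (18 and 7 cells) and cluster 10 (28 and 8 cells). The CCK1/2-KO and WT clusters were then given the same weights, those of the WT cells. The ratio was 1.39 in all glia and 1.63 in the slc1a2b state (5 clusters each). It was 1.54 in the rx3 state (2 clusters) and 1.05 in the foxj1a state (4 clusters). Cells of other clusters were left out. The weighted foxj1a value rests in part on the 7 and 8 WT cells of clusters 9 and 10. In the wnt8b state only cluster 4 was used, so its value of 1.00 is the ratio of that cluster without weighting.

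Depth classes gave ratios between 0.92 and 1.79. Cells of at least 2000 and under 4000 UMIs were lowest, with 520 CPM in CCK1/2-KO and 276 CPM in WT (0.92, 0.65 to 1.19). Cells of 16000 UMIs or more had 972 and 299 CPM (1.70, 1.60 to 1.80). In WT the level was nearly the same in all depth classes, between 257 and 320 CPM.

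**Figure D5:**
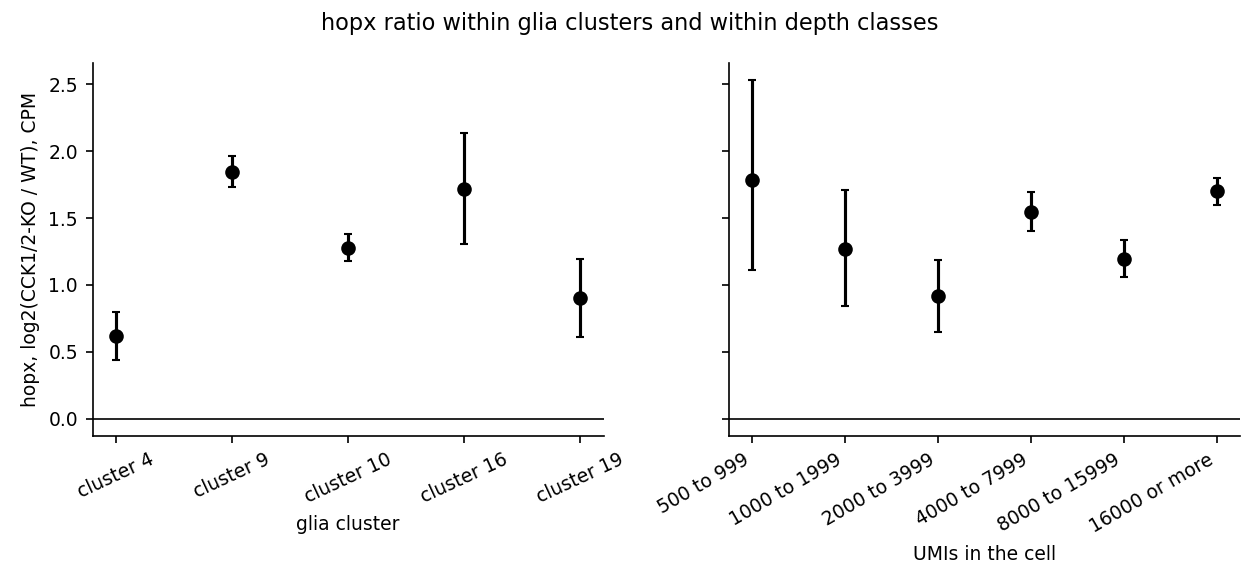
Log2 ratio of hopx, CCK1/2-KO over WT, within the 5 glial clusters with enough WT cells (left) and within 6 depth classes of glial cells (right), with exact 95% counting intervals. Every point lies above 0, from 0.62 in cluster 4 to 1.85 in cluster 9, and from 0.92 to 1.79 over depth classes.

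hopx was also higher in CCK1/2-KO in some classes outside glia, by less. The ratio was 0.89 in mural-like, 0.81 in erythrocyte-like (0.49 to 1.14), 0.65 in neuron-like and 0.19 in vascular endothelium-like cells (0.15 to 0.22). It was −0.77 in oligodendrocyte-like cells and −1.47 in macrophage-like cells, where hopx had 59.7 CPM in CCK1/2-KO and 165 CPM in WT. In OPC-like cells it was not separated (0.22, −0.090 to 0.53). T or NK-like cells (38 and 37 hopx UMIs) and lymphatic endothelium-like cells (29 and 9) were under the minimum of 100 UMIs. With the level of erythrocyte-like cells of the same library subtracted, the glial ratio was 1.59. No member reached 2-fold in either direction in the neuron-like (9 of 9 tested), oligodendrocyte-like (6 tested), OPC-like (6 tested) or erythrocyte-like cells (7 tested). Of all genes tested there, 1.07% were at least 2-fold higher and 1.02% lower in neuron-like cells, 2.16% and 1.53% in oligodendrocyte-like cells, 1.04% and 0.80% in OPC-like cells, and 1.55% and 0.855% in erythrocyte-like cells. gfap and slc1a3b were under the minimum of 100 UMIs in the last 3 classes, ptn in oligodendrocyte-like and gja1b in OPC-like cells.

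Because hopx was highest in endothelium, markers of vascular endothelium were counted in glia. Together the 6 markers gave 98.2 CPM in CCK1/2-KO glia and 133 CPM in WT glia, with cldn5b at 0. Most of this was mfsd2ab (874 and 1008 UMIs, log2 ratio −0.51), which set the direction of the sum. The defining markers cdh5 (8 and 4 UMIs) and slc2a1a (6 and 7 UMIs) were near 0, and kdrl had 38 and 24 and flt1 33 and 11 UMIs. Among these, flt1 was higher in CCK1/2-KO (1.28, 0.26 to 2.41). The ratios of cdh5, kdrl and slc2a1a were not separated from 0 (0.70, 0.36 and −0.53). In glial cells with none of the 6, hopx stood at 699.6 CPM in CCK1/2-KO and 228 CPM in WT, a ratio of 1.62. That step left out 427 of 1376 CCK1/2-KO and 386 of 1046 WT glia. It acted mostly through mfsd2ab, found in 384 and 367 glial cells, while cdh5 was found in 7 and 4. The remaining cells are thus mainly glia without an mfsd2ab UMI. A part of endothelial RNA in the hopx difference was not tested. Mural markers summed to 1642 and 1641 CPM in glia, a list that shares notch3 with glia.

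Heat shock genes were higher in CCK1/2-KO glia. hsp70l had 6682 CPM in CCK1/2-KO glia and 3239 CPM in WT glia, a log2 ratio of 1.04, and dnajb1b gave 1.12. Outside glia hsp70l was higher in CCK1/2-KO in every class, from 0.56 in oligodendrocyte-like to 1.31 in T or NK-like cells. dnajb1b was lower in T or NK-like (−0.57) and macrophage-like cells (−0.36) and higher in the other classes. fosab, an immediate early gene, gave −0.074. Their part in the hopx difference was not tested. Summed markers of other types in glia stood at 613 CPM in CCK1/2-KO and 461 CPM in WT for neurons (14 of 14 higher in CCK1/2-KO), 173 and 249 for oligodendrocytes, 27.7 and 29.8 for OPC, 198 and 158 for macrophages, 125 and 125 for T or NK cells and 945 and 1290 for erythrocytes. The corresponding sums were 214 and 204 CPM for cilia, 283 and 327 for tanycytes, 43.3 and 34.1 for cycling cells, 50.9 and 42.4 for fibroblasts and 56.3 and 43.5 for lymphatic endothelium. Their part in the differences was not tested either.

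Of 7 paralogs of the members, 6 were found. slc1a3a, the other copy of the slc1a3 transporter, had 88.4 CPM in CCK1/2-KO glia and 42.0 CPM in WT glia (1.07, 0.89 to 1.26), the opposite sign from slc1a3b. In the foxj1a state it had 134 and 38.8 CPM (1.79, 1.23 to 2.39). glulb followed glula and was higher, at 1067 and 853 CPM (0.32). The midkine genes mdka and mdkb, relatives of ptn, gave −0.20 and −0.078 in all glia, and mdka gave −1.01 in the wnt8b state (1379 and 2781 CPM). slc1a2a had 0 UMIs in CCK1/2-KO glia and 1 in WT glia, and fabp7b had 0 in both, at floors of 0.307 and 0.379 CPM for 3 UMIs.

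Lists of related genes were counted in all glia, beside the median of −0.015 over all genes. Of all genes tested there, 1.64% were at least 2-fold higher and 1.54% at least 2-fold lower. Of the astroglial homeostasis list 15 of 24 were tested, 1 was at least 2-fold higher (slc1a3a) and 1 at least 2-fold lower (glud1a, a glutamate dehydrogenase, −1.17), with a median of 0.0055. Of the radial glia and stem cell list 18 of 20 were tested, with a median of −0.11. her15.1, a Notch target with a near-identical copy, was higher (1.30), and cyp19a1b, the brain aromatase of radial glia, was lower, with 494 CPM in CCK1/2-KO and 4038 CPM in WT (−3.03). None of the 12 tested HOPX partners and BMP response genes of 16 listed, and none of the 5 tested pleiotrophin receptors and relatives of 11 listed, passed 2-fold, with medians of −0.21 and −0.078. At the shares over all genes, none among so few genes is no finding. Of the dissociation and stress list 14 of 15 were tested and 3 were higher (hsp70l, hsp70.1 and dnajb1b), with a median of 0.15. In the slc1a2b state the lists gave medians of 0.21, −0.062, −0.14, −0.19 and −0.21 in the same order, beside −0.031 for all genes. In that state 1.21% of all genes tested were at least 2-fold higher and 1.70% at least 2-fold lower. There her15.1 (1.47) was higher, and cyp19a1b (−3.84), srfb, a serum response factor gene of the HOPX list (−1.29), and the early gene ier2a (−1.09) were lower.

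The genes most like hopx over the 58 cluster profiles, among 12729, were cavin2b (r = 0.88), s100a10b (0.87), sgk1 (0.87), akap12b (0.86), shroom4 (0.85), sypl2a (0.84), septin10, socs3b, cdc42ep5 and bag2 (0.84 each). cavin2b encodes a caveolar coat protein and sgk1 a serum- and glucocorticoid-induced kinase. None was a member. The closest member was gja1b, at rank 269. In glia cavin2b was higher in CCK1/2-KO (log2 ratio 0.94, 0.74 to 1.14), as was s100a10b (0.58), and the other 8 lay between −0.028 and 0.23. The ratios of these 10 genes in glia were all smaller than that of hopx (1.49), with cavin2b the nearest.

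The mean profile of the other 8 members was followed most closely by her4.1 (0.98), gpm6bb (0.97), cyp4t8 and mfge8a (0.96 each), crtac1a (0.96), si:ch211-66e2.5 (0.96), ENSDARG00000117448 (0.95), id1 (0.95), ATP1B4 (0.95) and GDPD2 (0.94). id1 is an early target of BMP signals in stem cells. hopx ranked 648 in this order, with r = 0.62. In glia these 10 genes had log2 ratios between −0.38 (gpm6bb) and 0.29 (cyp4t8).

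Among 7321 genes of the slc1a2b state ordered by ratio with 5 CPM added, hopx ranked 6 from the top. By the ratio without addition it ranked 27 among the 7357 genes tested in that state. Above hopx in the order with 5 CPM added lay crabp1a (log2 ratio without addition 2.67), a retinoic acid binding protein gene, cntn3a.1 (2.77), CPNE4 (2.18), dnaja (1.55) and her15.1. The lowest were cyp19a1b, sc:d189 (−3.12), rbm14b (0 UMIs in CCK1/2-KO and 103 in WT), ctsba, a cathepsin B gene (−2.68), and her12 (−2.48).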

How the data were processed

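Droplet single-cell RNA was measured in 1 CCK1/2-KO and 1 WT library, grouped by the genotype label. The authors deposited raw UMI counts per gene and barcode, and the submitters' processing notes name Cell Ranger, Seurat and GRCz11. The values were whole numbers with no normalization. The files held 11604 CCK1/2-KO and 9364 WT barcodes with 58095515 and 51744329 UMIs, and 52 barcodes occurred in both libraries. No coordinates or sequences were used. The 9 members and all lists were chosen with earlier results of these data known.

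Barcodes under 500 UMIs or 250 genes, or above 20% mitochondrial UMIs, were left out. The barcodes with the highest Scrublet scores (1077 CCK1/2-KO and 701 WT) were removed, at an expected 0.8% per 1000 barcodes. Clusters were made with scanpy 1.11.5 and leidenalg 0.10.2 on 2000 variable genes, 30 components and 15 neighbours at resolution 1.0. A marker counted at a UMI in 10% of a cluster's cells and a level 2-fold that of the rest, and a class name needed 3 markers. The minimum of 4 for glia was set after the data were seen. Levels are UMIs summed over cells per 1000000 UMIs (CPM) with exact Poisson intervals, ratios carry the exact conditional interval and shares Clopper-Pearson intervals, all at 95% (scipy 1.17.1). UMIs of 1 cell are not independent, so these intervals are too narrow. No test was run. The calculation of levels and ratios was tested on simulated data.

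The genes named are the 9 members in every state, their paralogs, list genes at 2-fold or more with at least 100 UMIs, the 10 genes most like hopx and most like the mean of the other 8, and the 5 highest and 5 lowest in the slc1a2b state with at most 50% of UMIs in 3 cells. Marker genes and stress genes are named beside results they bear on. The alternatives tried concerned the cell filter, doublets, clustering, state limits, scaling, the highest cells, free RNA and depth.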

Additional observations from a re-analysis of the deposited data

Results flagged for a closer look

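Glial states disagreed in sign for slc1a2b and ptn. For slc1a2b the CCK1/2-KO level over the WT level, as log2, was 0.47 in the wnt8b state (7125 CPM in CCK1/2-KO and 5155 CPM in WT) and −0.40 in the foxj1a state (8482 CPM and 11202 CPM), with counting intervals that excluded 0 on opposite sides. For ptn it was 0.46 in the wnt8b state (303 CPM and 221 CPM) and −0.30 in the foxj1a state (593 CPM and 730 CPM). With 1 library per genotype the difference between states was not tested. For slc1a2b the sign turned in both states among cells of 2000 to 8000 UMIs, and for ptn in the foxj1a state.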

How the results depend on the processing

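Each log2 ratio of the 9 genes in all glia and the 4 states was recomputed under 18 alternatives. Of the 810 values, 603 stayed within the counting error of the first value, 200 moved further with the same sign or from a value not separated from 0, and 7 turned a separated value, all for slc1a2b or ptn. hopx stayed above 0 throughout, between 1.37 and 1.62 in all glia. Its values outside counting error in all glia were 1.42 when clusters were made without genes that differ between libraries, 1.37 with each cell weighted equally, 1.59 with the erythrocyte-like level subtracted and 1.41 in cells of 2000 to 8000 UMIs. In the slc1a2b state they were 1.58 without the 3 highest cells, 1.59 with the erythrocyte-like level subtracted and 1.31 at 2000 to 8000 UMIs. In the rx3 state they were 1.59 at a state minimum of 1 UMI, 1.24 with equal weights, 1.59 without the 3 highest cells and 1.33 at 2000 to 8000 UMIs. In the foxj1a state the value was 0.73 at 2000 to 8000 UMIs, under 2-fold. In the wnt8b state, at 1.03, it was also under 2-fold at 0.79 and 0.99 with state minimums of 3 and 1 UMIs, 0.94 with equal weights, 0.95 with clusters made without differing genes and 0.96 with the cycling cluster added. Without cells holding a vascular endothelium marker, mostly mfsd2ab, hopx gave 1.62 in all glia, 1.71 in the slc1a2b state and 1.53 in the wnt8b state. That alternative, glia clusters from 3 markers, leaving out the cluster of almost only CCK1/2-KO cells and adding the cycling cluster were chosen after seeing the data.

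The 7 turned values were slc1a2b at 0.0071 in all glia and 0.051 in the foxj1a state without cells holding a vascular endothelium marker, slc1a2b at −0.047 in the wnt8b state and 0.22 in the foxj1a state at 2000 to 8000 UMIs, ptn at −0.29 in the slc1a2b state and 0.53 in the foxj1a state at 2000 to 8000 UMIs, and ptn at 0.0030 in the foxj1a state with doublets kept. The cause was not tested. Counts of genes at 2-fold or more followed the UMI minimum. In all glia 182 genes were higher and 171 lower at 100 UMIs, 636 and 660 at 20 UMIs, and 62 and 98 with every gene and 5 CPM added. In the slc1a2b state 89 and 125 became 490 and 679 at 20 UMIs, in the wnt8b state 42 and 48 became 515 and 415, in the rx3 state 92 and 102 became 607 and 637, and in the foxj1a state 136 and 89 became 870 and 654. With every gene and 5 CPM added the counts were 1700 and 1729 (wnt8b), 151 and 236 (rx3) and 835 and 680 (foxj1a). Unthinned shares of cells with hopx were 71.5% in CCK1/2-KO and 48.4% in WT in the slc1a2b state, 54.7% and 38.3% in the wnt8b state, 85.6% and 82.7% in the rx3 state and 57.8% and 43.2% in the foxj1a state. No paired analysis was possible because the groups share only replicate number 1. The depth limits the wnt8b state most, with 432140 UMIs in CCK1/2-KO and 367189 in WT.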
